A study of Mus musculus with 12 samples.

Results

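Complement C1q and a set of genes known from red pulp macrophages of the spleen were followed by symbol through the deposited table of normalized counts. The set held 10 of its 24454 genes, namely C1qa, C1qb, C1qc, Spic, Mertk, Axl, Cd163, Hmox1, Slc40a1 and Vcam1. The 12 libraries were made from MLL-AF9 blasts. This leukemia is driven by the fusion oncogene MLL-AF9, here delivered by a retrovirus whose Venus fluorescence marks the cells that carry it. The starting cells came from fetal liver, either WT or STAT3β-deficient (Δβ, without the β isoform), and grew in male hosts of the strain NOD.Cg-Prkdc scid Il2rg tm1Wjl/SzJ. All 4 groups therefore carried the oncogene, the reporter and the same kind of host, which lacks lymphocytes and natural killer cells but keeps macrophages of its own. Venus+ cells were sorted from the spleen (SP) and the bone marrow (BM) of diseased animals, with 3 libraries each of WT SP, Δβ SP, WT BM and Δβ BM. The deposited counts are per gene and pool both STAT3 isoforms, so they do not check the genotype. Nothing in the labels says whether libraries of a group came from separate donors or hosts, and p-values measure the spread between these libraries.

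C1q is the recognition molecule of the classical complement pathway, built from the chains that C1qa, C1qb and C1qc encode. Macrophages are its main source, and those of the splenic red pulp use it, with the receptors Mertk and Axl, in the uptake of dying cells. Red pulp macrophages depend on the transcription factor Spic, degrade the heme of aged red cells with heme oxygenase 1 (Hmox1), return the iron through ferroportin (Slc40a1) and carry Vcam1 on their surface. Cd163 is the scavenger receptor for haemoglobin bound to haptoglobin.

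Between 9001051 and 13859727 reads on genes were counted per library, and 1 read was worth 0.775 to 1.17 normalized counts. Genes were tested where their mean over the 12 libraries was at least 10 normalized counts, which 11476 genes and 5 of the 10 genes passed (Vcam1, Slc40a1, Hmox1, Cd163 and Axl). The other 5 (C1qa, C1qb, C1qc, Spic and Mertk) had means of 0.591 to 7.90 and are given as values without a test. One library stood apart. WT SP replicate 1 had the highest value of the 12 libraries for 25.8% of the tested genes, against 12.6% in the next library. Of the 5 tested genes here, 2 were highest in it, and with the untested genes at few reads it was 7 of 10. In a list of 32 other macrophage markers, 18 were highest in this library, and their summed level was 140653 normalized counts there. The other WT SP libraries had sums of 35474 and 95987. Sums in Δβ SP ranged from 38743 to 56013, those of WT BM from 52302 to 65059 and those of Δβ BM from 37364 to 73324. The most abundant of them, Lyz2 (lysozyme) and Mpeg1 (perforin-2), were at 62148 and 28772 normalized counts in WT SP replicate 1, and blasts of the monocytic lineage use both as well. Defining markers of resident macrophages were near 0 in all 12 libraries: 10 of the 32 markers, with Cd5l, Timd4, Vsig4, Folr2 and Itgad among them, had at most 10 reads in every library. Hoxa9 and Meis1, which MLL fusions keep active, were at 798 and 516 normalized counts in WT SP replicate 1, the lowest of the 12 libraries for both. They belong to a list of 16 blast and progenitor markers, which was mixed in this library. Hoxa10, Myb, Kit, Prtn3, Ctsg and Cebpe were also lowest there. Another 3 were highest there, namely Ptprc (20833), Spi1 (9726) and Cebpa (1639). WT SP replicate 3 had the lowest sum of the macrophage list. It had the highest sum of the 16 blast and progenitor markers (203932 normalized counts, against 70445 to 159132 elsewhere). The largest entries of that sum were Elane (72724), Mpo (40587) and Prtn3 (38024), and the list did not move as 1. In this library Myb (11400) was at its highest of the 12 libraries and Irf8 (1603) at its lowest.

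**Figure D1:**
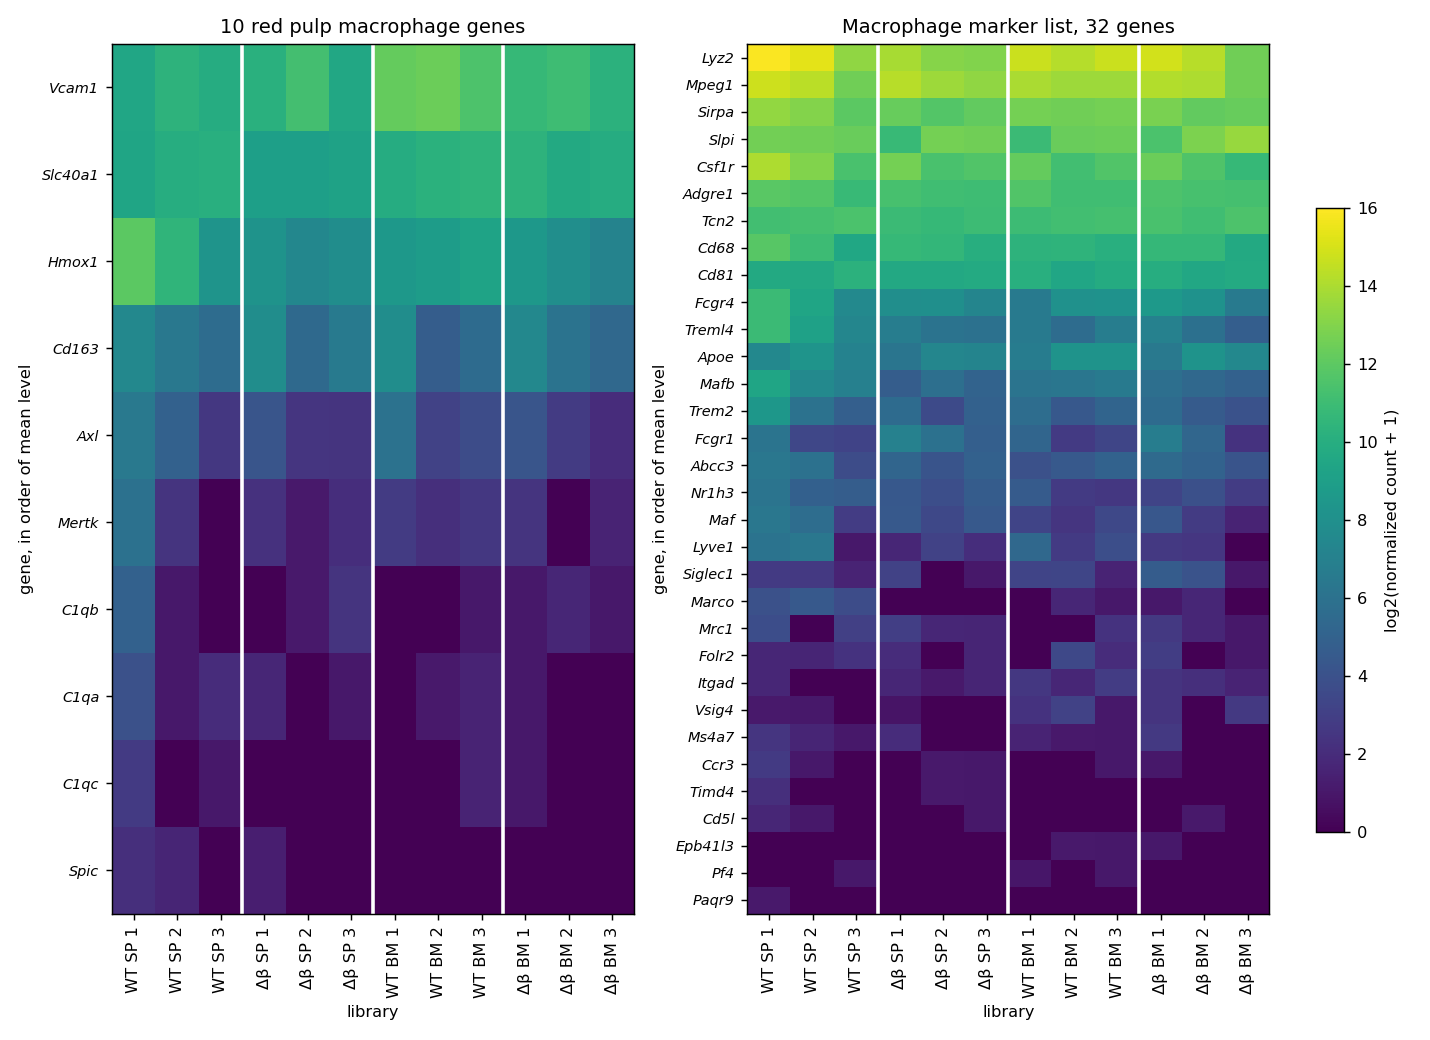
Level of the 10 genes (left) and of the list of 32 macrophage markers (right) in each of the 12 libraries, as colour on the scale of log2(normalized count + 1), with genes in order of their mean. C1qa, C1qb, C1qc and Spic sit with the resident macrophage markers at the dark end, and WT SP 1 is the brightest column for 7 of the 10 genes and 18 of the 32 markers.

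The 3 C1q genes were close to the detection limit in 11 of 12 libraries. They form 1 cluster on the minus strand of chromosome 4 (GRCm38, chr4:136880129-136898803), in the order C1qb, C1qc, C1qa. Their reads added up to 45 in WT SP replicate 1 and to 0 to 5 in each of the other 11 libraries. Values below are normalized counts of replicates 1, 2 and 3 of a group, in this order. C1qa (Entrez gene 12259) stood at 14.8, 1.06 and 3.04 in WT SP, against 2.33, 0 and 1.07 in Δβ SP. The BM libraries held 0, 1.13 and 2.01 in WT and 1.09, 0 and 0 in Δβ. The groups overlapped in both organs, and 13 of the 25 C1qa reads lay in WT SP replicate 1. C1qb (Entrez gene 12260) stood at 30.8, 1.06 and 0 in WT SP, against 0, 1.12 and 4.27 in Δβ SP. The BM libraries held 0, 0 and 1.01 in WT and 1.09, 2.34 and 1.04 in Δβ. The BM groups of C1qb did not overlap, with Δβ higher, as in 3.5% of all tested genes, but no BM library had more than 2 of its reads, a count that the floor of 3 reads does not separate from 0. C1qc (Entrez gene 12262) had 5.70, 0 and 1.01 normalized counts in WT SP, and 2.01 in WT BM replicate 3 and 1.09 in Δβ BM replicate 1. It was at 0 in the other 7 libraries, which allows up to 3 reads in each. WT SP replicate 1 held 52.0% of the C1qa reads, 71.1% of the C1qb reads and 55.6% of the C1qc reads. A difference in C1q between genotypes or organs was therefore not detectable at this depth. An exact permutation test of 3 against 3 libraries could not go below p = 0.1. In bulk samples, fewer cells of a type and less RNA per cell cannot be told apart.

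The 250 bases before the C1qb start site (RefSeq, GRCm38.p6, chr4:136886201-136886450, minus strand) are shown because this chain had the most reads of the 3. RefSeq windows of this kind were given for 6 of the 10 genes, and C1qa, Vcam1, Hmox1 and Slc40a1 were not among them. Capitals mark matches on either strand to motifs of factors known in these cells. The motifs searched were TGCTGA (Maf recognition element core), TGANNNNGC (antioxidant response element core), GAGGAAGT and its short form GAGGAA (PU.1 and SpiC, overlapping each other), TTCNNNGAA (STAT), and the interferon response and NF-kB motifs.

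C1qb: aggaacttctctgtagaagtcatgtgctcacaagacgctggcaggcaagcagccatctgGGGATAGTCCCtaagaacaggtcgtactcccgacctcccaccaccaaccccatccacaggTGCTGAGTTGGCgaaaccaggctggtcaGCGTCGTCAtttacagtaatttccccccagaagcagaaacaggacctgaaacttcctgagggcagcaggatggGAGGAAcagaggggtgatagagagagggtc

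The C1qb window held the Maf core, which overlaps a match to the antioxidant response element core, a second such match, the short PU.1 and SpiC form and an NF-kB match on both strands. Of all 32851 mouse windows of this length, 16.1% held the Maf core, 35.2% the antioxidant core, 23.3% the short PU.1 and SpiC form and 17.6% the NF-kB letters. The interferon response letters (2.98% of windows) and the STAT letters (7.02%) were not in it. A match describes the letters only.

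Spic (Entrez gene 20728, chr10:88674772-88685015, minus strand) was nearly absent from the blasts. Its 7 reads lay in WT SP replicates 1 and 2, with 3.42 and 2.12 normalized counts, and in Δβ SP replicate 1, with 1.55. All 6 BM libraries were at 0, and 3 reads there would be 2.98 to 3.50 normalized counts. Only WT SP replicate 1 reached 3 reads.

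Mertk (Entrez gene 17289, chr2:128698956-128802894, plus strand), a receptor tyrosine kinase that binds dying cells through the bridging proteins Gas6 and protein S, was low outside 1 library. WT SP stood at 61.5, 4.24 and 0, and Δβ SP at 3.88, 1.12 and 3.20. The BM libraries held 5.95, 3.38 and 5.04 in WT and 4.35, 0 and 2.07 in Δβ. WT SP replicate 1 held 54 of the 87 Mertk reads (62.1%), and the other 11 libraries had at most 6 reads each. Mertk overlaps an antisense gene, and it was not stated whether counting used strand, so reads of the pair cannot be told apart. Axl (Entrez gene 26362, chr7:25757273-25788705, minus strand), its relative in the same receptor family, was detected in all 12 libraries. WT SP stood at 88.9, 29.7 and 5.07, and Δβ SP at 17.8, 4.48 and 4.27. The BM libraries held 64.5, 7.89 and 12.1 in WT and 17.4, 5.84 and 3.11 in Δβ. WT and Δβ overlapped in both organs. On the log2 scale, Δβ minus WT came to -1.65 in SP (limma standard error 1.06, adjusted p = 0.457) and to -1.29 in BM (standard error 1.06, adjusted p = 1.0). The SP value was -0.74 without WT SP replicate 1 and -2.69 without WT SP replicate 3 (adjusted p = 0.878 and 0.0861 from limma). The BM value was -0.43 without WT BM replicate 1 and -0.81 without Δβ BM replicate 3. The spread within groups was wide: Axl spanned 17.5-fold from the lowest to the highest library of WT SP and 8.18-fold in WT BM. The unadjusted limma p for Δβ against WT was 0.149 in SP and 0.249 in BM. With replicate number as a block over all groups it was 0.0170 in SP (adjusted p = 0.251) and 0.0478 in BM (adjusted p = 0.9999).

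Cd163 (Entrez gene 93671, chr6:124304656-124330527, plus strand) was the most evenly distributed of these receptors over genotype and organ. WT SP stood at 177, 82.7 and 49.7, and Δβ SP at 225, 43.7 and 95.0. The BM libraries held 228, 24.8 and 47.3 in WT and 174, 67.8 and 41.4 in Δβ. The 4 group means lay between 94.4 and 121 normalized counts, and no groups were separated. On the log2 scale, Δβ minus WT came to 0.12 in SP (limma standard error 0.86, adjusted p = 0.956) and to 0.28 in BM (standard error 0.86, adjusted p = 1.0).

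Cd163, Axl and Mertk were, however, highest in replicate 1 of all 4 groups. For Cd163, replicate 1 was 2.14 to 4.82 times the higher of the other two libraries of its group, and for Axl 2.98 to 5.34 times. For Mertk the ratio was 14.5 in WT SP and 1.18 to 2.10 in the other groups, where it rested on 6 reads or fewer. Among all tested genes, 642 (5.59%) were highest in replicate 1 of all 4 groups, 69 (0.601%) in replicate 2 and 218 (1.90%) in replicate 3. Vcam1 was highest in replicate 2 of all 4 groups. This pattern was looked for after the values were seen. A limma F test of the replicate number over all tested genes gave an adjusted p of 0.201 for Cd163, 0.203 for Axl and 0.231 for Vcam1. It called 0 of the 11476 genes, and 9.97% had an unadjusted p under 0.05. The test treated the 12 libraries as independent. In Δβ, however, same-numbered SP and BM libraries deviated alike across genes (r = 0.664, 0.608 and 0.634), so the 4 groups are not independent evidence. The labels do not say what a number shared between groups stands for.

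The windows before the start sites of the receptors that were highest in the same libraries, Cd163 (chr6:124304401-124304650, plus strand), Axl (chr7:25788734-25788983, minus strand) and Mertk (chr2:128698665-128698914, plus strand), are shown to set their letters side by side, with capitals as for C1qb. The first 28 bases of the Cd163 window lie in an annotated small nucleolar RNA gene on the other strand.

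Cd163: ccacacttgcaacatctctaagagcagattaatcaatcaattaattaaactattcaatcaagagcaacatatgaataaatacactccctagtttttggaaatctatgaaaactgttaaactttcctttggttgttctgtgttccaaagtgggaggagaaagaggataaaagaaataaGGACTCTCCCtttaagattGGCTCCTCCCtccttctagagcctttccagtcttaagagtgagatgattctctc

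Axl: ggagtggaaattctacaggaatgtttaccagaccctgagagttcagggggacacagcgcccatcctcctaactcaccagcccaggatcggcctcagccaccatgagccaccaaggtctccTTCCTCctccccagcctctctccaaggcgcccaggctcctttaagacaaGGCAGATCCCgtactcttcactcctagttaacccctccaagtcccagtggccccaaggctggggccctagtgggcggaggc

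Mertk: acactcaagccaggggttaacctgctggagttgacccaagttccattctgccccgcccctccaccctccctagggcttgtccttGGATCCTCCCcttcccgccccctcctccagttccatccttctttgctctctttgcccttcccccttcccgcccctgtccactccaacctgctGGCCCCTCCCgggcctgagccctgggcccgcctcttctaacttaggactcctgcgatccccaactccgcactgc

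All 3 windows held the NF-kB letters, at 2 places in Cd163 and Mertk and at 1 in Axl, which 17.6% of all windows hold. Axl also held the short PU.1 and SpiC form. None of them held the Maf core, the antioxidant core, the interferon response letters or the STAT letters.

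**Figure D2:**
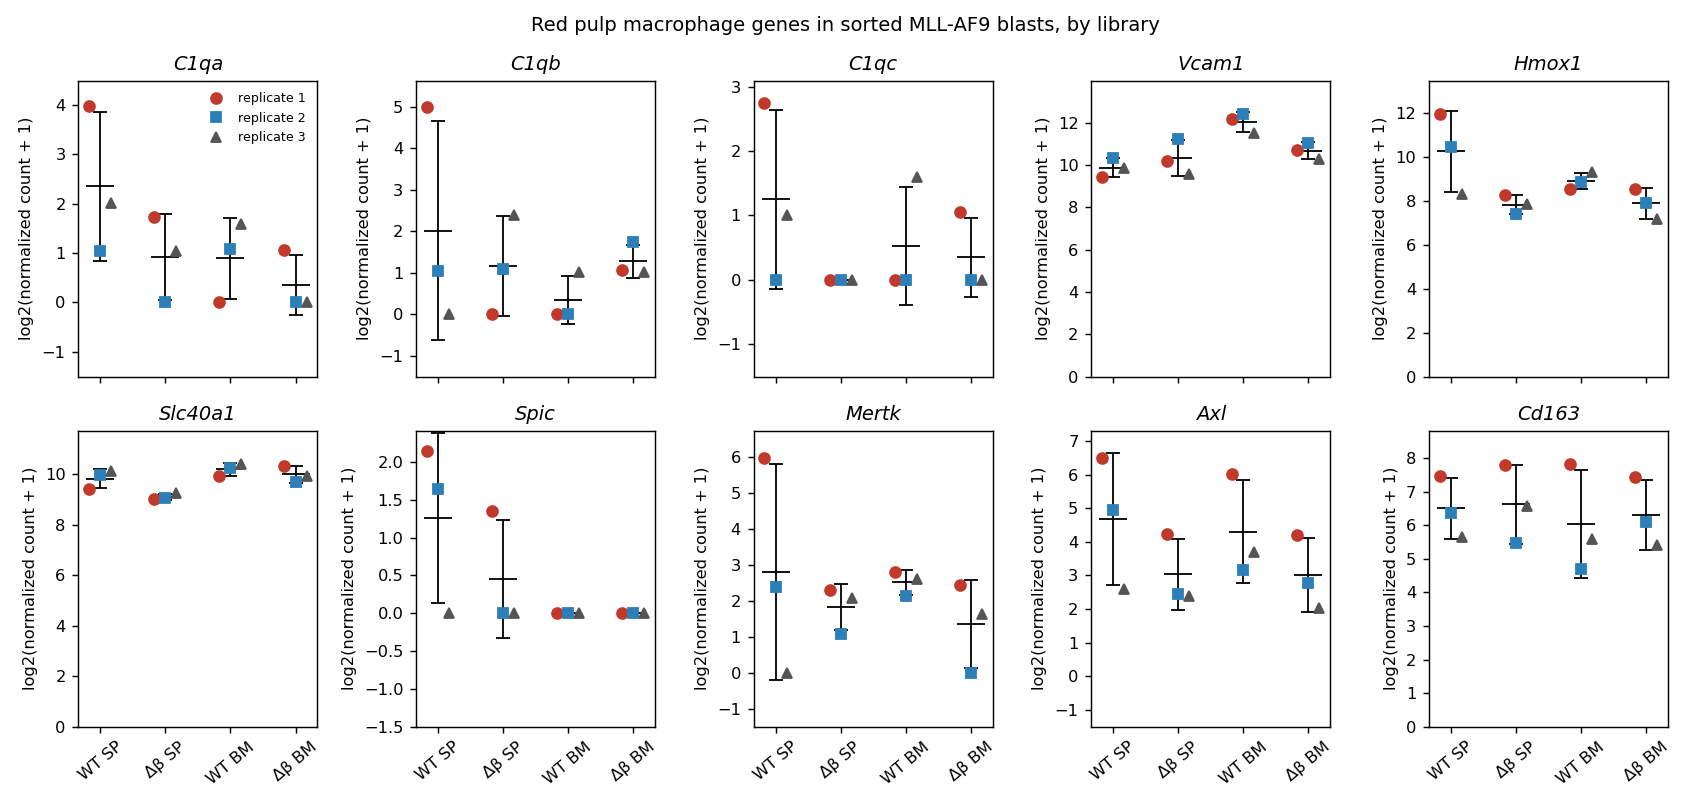
Level of each gene as log2(normalized count + 1) on the vertical axis in the 3 libraries of each group, with symbols for the replicate number of the labels and black bars for the mean ± SD of the log2 values. Replicate 1 (circles) is on top in all 4 groups of Cd163, Axl and Mertk, Hmox1 is high in 2 of 3 WT SP libraries, and Vcam1 is high in WT BM.

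Hmox1 and Slc40a1, the enzyme and the exporter of heme iron recycling, were lower in each Δβ than in each WT library of the SP, but passed no adjusted threshold in limma. Hmox1 (Entrez gene 15368, chr8:75093621-75100589, plus strand) stood at 3925, 1402 and 314 in WT SP and at 300, 167 and 227 in Δβ SP. WT SP replicate 3 was 4.55% above the highest Δβ library, and replicate 1 was 12.5 times the median of the other 11 libraries. In BM, Hmox1 had 370, 463 and 619 in WT and 372, 238 and 142 in Δβ, and the groups overlapped. Δβ minus WT came to -2.41 in SP on the log2 scale (standard error 0.72, 5.32-fold lower, unadjusted p = 0.00646, limma adjusted p = 0.223) and -1.02 in BM (standard error 0.72, adjusted p = 1.0). The difference between these effects was -1.39 (standard error 1.01, adjusted p = 0.926). Whether the SP difference passed depended on the tool and on WT SP replicate 3. DESeq2 gave a log2 fold change of -3.00 with an adjusted p of 0.000503, and edgeR an adjusted p of 0.156. Without WT SP replicate 3, limma gave -3.38 with an adjusted p of 0.00768, in a fit where 1884 of all tested genes were called. Without WT SP replicate 1 the value was -1.56 with an adjusted p of 0.489. In WT, Hmox1 was at 1880 ± 1853 normalized counts in SP and 484 ± 126 in BM (SD, n = 3), with overlapping libraries and a log2 difference of 1.34 (standard error 0.72, limma adjusted p = 0.634). This difference was 2.31 (adjusted p = 0.0300) without WT SP replicate 3 and 0.49 (adjusted p = 0.999) without WT SP replicate 1.

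Slc40a1 (Entrez gene 53945, chr1:45908068-45926523, minus strand) varied least within groups of the 5 tested genes. WT SP stood at 684, 989 and 1105, and Δβ SP at 515, 524 and 605. The BM libraries held 963, 1210 and 1361 in WT and 1295, 827 and 975 in Δβ. Δβ SP was the lowest of the 4 groups and overlapped with none of the other three. Δβ minus WT came to -0.73 in SP on the log2 scale (standard error 0.21, 1.66-fold lower, unadjusted p = 0.00554, limma adjusted p = 0.218) and -0.20 in BM (standard error 0.21, adjusted p = 1.0). DESeq2 gave an adjusted p of 0.0407 in SP and edgeR one of 0.197. Leaving out WT SP replicate 1, the lowest WT library, gave -0.93 (adjusted p = 0.225 from limma), and leaving out replicate 3, the highest, gave -0.59 (adjusted p = 0.0908). Between organs, Slc40a1 was lower in SP than in BM by a log2 difference of -0.89 in Δβ (standard error 0.21, 1.85-fold lower, unadjusted p = 0.00151, limma adjusted p = 1.0) with no overlap, and by -0.36 in WT (standard error 0.21, adjusted p = 0.654) with overlap. Over both genotypes the difference was -0.63 (standard error 0.15, limma adjusted p = 0.840, 0.0424 from DESeq2).

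Vcam1 (Entrez gene 22329, chr3:116109949-116129688, minus strand), the adhesion molecule that integrins with the Itga4 subunit bind, was highest in WT BM, though limma called none of its differences. WT BM stood at 4730, 5511 and 2910, and Δβ BM at 1684, 2131 and 1244. The SP libraries held 699, 1291 and 946 in WT and 1157, 2409 and 760 in Δβ. WT BM lay above every library of the other 3 groups, whose ranges overlapped one another. The log2 difference between SP and BM in WT was -2.16 (standard error 0.40, 4.46-fold lower in SP, unadjusted p = 0.000243, limma adjusted p = 0.357). It was -0.36 in Δβ (standard error 0.40, adjusted p = 1.0). DESeq2 called the WT difference with an adjusted p of 0.000185 and edgeR did not (0.393), and limma called it without WT SP replicate 3 (adjusted p = 0.0332), in a fit that called 598 genes. Without WT SP replicate 1 the difference was -1.94 (adjusted p = 0.999 from limma). Δβ minus WT came to -1.36 in BM on the log2 scale (standard error 0.40, 2.57-fold lower, unadjusted p = 0.00629, adjusted p = 1.0) and 0.44 in SP (standard error 0.40, adjusted p = 0.591). The genotype effect in SP minus that in BM was 1.80 (standard error 0.57, unadjusted p = 0.00931, limma adjusted p = 0.926). Endothelial and stromal cells of the marrow also carry Vcam1. In a list of 20 of their markers, 3 passed the minimum mean, namely Pecam1 (mean 1354 normalized counts), Eng (130) and Pdgfrb (125), and 3 were at 0 everywhere. The defining markers Cdh5, Kdr, Lepr and Pdgfra had means of 0.0839 to 0.697. The summed level of the list ranged from 1025 to 1594 in WT BM and from 1309 to 2535 in Δβ BM. The SP sums ranged from 1235 to 1306 (WT) and from 1662 to 2680 (Δβ). WT BM was not the highest group in these sums, but they mainly follow Pecam1. It made up 1184 of 1306 normalized counts in WT SP replicate 1 and 738 of 1025 in WT BM replicate 1. The sums therefore cannot show how much of the other markers a library held. At low counts, however, Cxcl12, a chemokine of marrow stroma, stood at 33.7, 13.5 and 8.06 in WT BM, at 6.52, 3.50 and 9.32 in Δβ BM and at 0 to 3.88 in the SP libraries. The collagen gene Col1a1 stood at 9.92, 12.4 and 19.1 in WT BM, at 18.5, 4.67 and 5.18 in Δβ BM and at 0 to 7.42 in SP. The tested markers went otherwise. Eng stood at 179, 93.5 and 65.5 in WT BM, at 128, 88.8 and 415 in Δβ BM and at 47.7 to 219 in SP. Pdgfrb stood at 41.7, 201 and 125 in WT BM, at 32.6, 33.9 and 529 in Δβ BM and at 24.8 to 232 in SP. The part of these markers in the Vcam1 result was not tested. An antisense gene overlaps Vcam1, and its reads cannot be told apart without strand.

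Of the 5 tested genes, limma called 0 in each comparison, and the other 5 were not tested. Of the 11476 tested genes it called 0.105% for Δβ against WT in SP (12 genes), 0.0697% in BM (8 genes) and 0% in each comparison of the organs and in the difference of genotype effects. At an unadjusted p under 0.05, Δβ against WT in SP counted 2 of the 5 tested genes (Hmox1 and Slc40a1), against 14.9% of all tested genes. In BM the count was 1 (Vcam1), against 2.59%. SP against BM counted 1 in WT (Vcam1), against 8.27%, and 1 in Δβ (Slc40a1), against 1.77%. Over both genotypes it counted 2 (Vcam1 and Slc40a1), against 5.76%, and for the difference of genotype effects 1 (Vcam1), against 3.2%. Groups did not overlap, with the first group lower, for Hmox1 and Slc40a1 in SP by genotype, where 9.37% of all tested genes did so. The same held for Vcam1 in BM by genotype (4.13% of genes), for Vcam1 between organs in WT (5.8%) and for Slc40a1 between organs in Δβ (4.51%). None of the 5 tested genes had the first group higher without overlap, which 7.92% of genes did for the genotype in SP, 5.66% between organs in WT and 2.92% in Δβ, and 3.5% for the genotype in BM. DESeq2 called 2 of the 5 tested genes for the genotype in SP, where it called 452 of all 11476. It called 1 of the 5 between organs in WT (109 of all) and 2 over both genotypes (36 of all). In the other comparisons it called 0 of the 5, with 37 of all for the genotype in BM, 2 between organs in Δβ and 5 for the difference of genotype effects. edgeR called 0 of the 5 throughout, and 4 and 8 of all for the genotype in SP and BM. These comparisons share libraries, WT SP and WT BM among them.

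**Figure D3:**
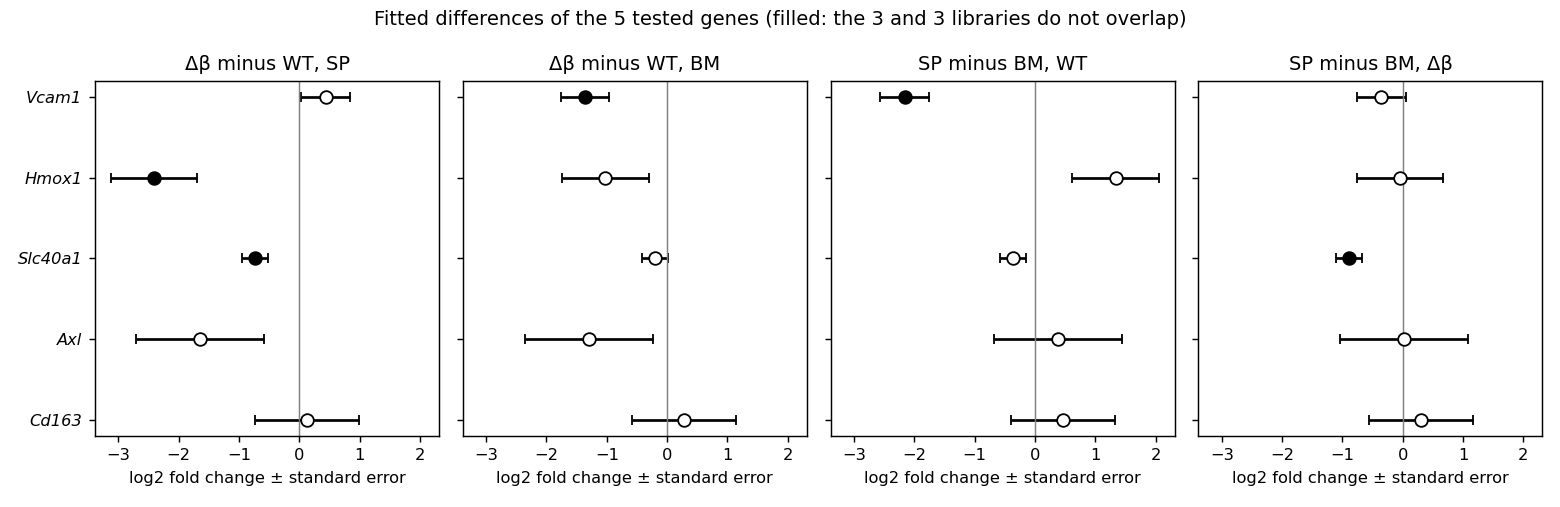
Fitted log2 fold change ± standard error (horizontal axis) of the 5 tested genes in 4 comparisons, with filled points where the 3 and 3 libraries do not overlap. Hmox1 (-2.41) and Slc40a1 (-0.73) lie left of 0 for the genotype in SP, Vcam1 for the genotype in BM (-1.36) and between organs in WT (-2.16), and Slc40a1 between organs in Δβ (-0.89).

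Per kb of exon, the genes fell into a detected and a nearly silent set. The medians over the 12 libraries were 195 normalized counts per kb for Hmox1, 168 for Vcam1 and 108 for Slc40a1, and the libraries of these 3 overlapped widely. Cd163 followed with 13.8 and Axl with 1.98 normalized counts per kb. C1qa, C1qb and Mertk had medians of 1.04, 0.963 and 0.837, values within 1 or a few reads of one another, and the medians of C1qc and Spic were 0. Without WT SP replicate 1, the mean Hmox1 level was 419 in place of 712 normalized counts and that of Vcam1 2252 in place of 2123.

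**Figure D4:**
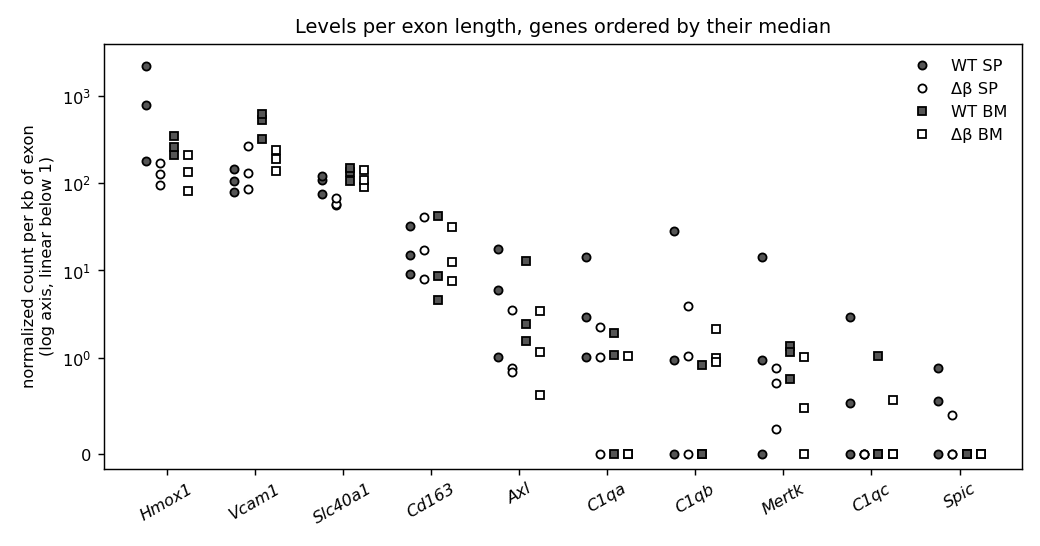
Normalized count per kb of exon (vertical axis, logarithmic and linear below 1) of each gene in every library, by group, with genes in order of their median. Hmox1, Vcam1 and Slc40a1 lie around 100 to 200 per kb at the median, and the C1q genes, Mertk and Spic lie around or below 1.

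The other genes of these pathways were described from fixed lists, and limma called 0 genes of any of these lists in any comparison. Complement components other than C1q were present in part. Of 23 such genes 7 were tested and 9 were at 0 in every library. C3, the central component, had a mean of 16637 normalized counts over the 12 libraries and properdin (Cfp) one of 3693, whereas the C1q partner proteases C1ra and C1s1 had 10.8 and 0.627. The median log2 fold change of the tested 7 for Δβ against WT in SP was 0.15, with 4 higher and 3 lower, against -0.014 over all tested genes. Of 17 complement receptors and regulators, 12 were tested. In SP 9 of these had lower values in Δβ, with a median of -0.61, and the most abundant were Calr, which binds C1q on dying cells (mean 20171), and the complement receptor subunits Itgam (13278) and Itgb2 (10500). Itgam was named after its values were seen, and had no overlap in SP, where Δβ minus WT came to -1.06 (standard error 0.30, limma adjusted p = 0.218, 0.0106 from DESeq2).

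Bridging molecules of Mertk and Axl differed from the receptors in level. Pros1, which encodes protein S, had a mean of 452 normalized counts, whereas Gas6 had 0.373 and the third receptor of the family, Tyro3, had 1.72. Of 26 genes of dying cell clearance 17 were tested, and for Δβ against WT in SP 3 had higher and 14 lower values, with a median log2 fold change of -0.33. Of the 26, 15 were highest in WT SP replicate 1, where their sum was 44237 normalized counts, against 21673 and 33069 in the other WT SP libraries and 22271 to 27376 in Δβ SP. Among 32 genes of heme and iron handling, 26 were tested, and in the same comparison 8 had higher and 18 lower values, with a median of -0.15. The ferritin chains Fth1 and Ftl1, which store iron, had means of 5478 and 3844 normalized counts and differences of Δβ minus WT of -0.78 (standard error 0.32, limma adjusted p = 0.300) and -0.55 (standard error 0.16, adjusted p = 0.218). Globin genes Hba-a1, Hba-a2, Hbb-bs and Hbb-bt were listed at 0 in every library, and the reason was not tested. The red cell transcription factor gene Klf1 had a mean of 5.62, with 3 or more reads in 11 libraries. Alas2, another listed red cell marker, had a mean of 4.51, with 3 or more reads in 9 libraries. The globin values therefore do not show that red cell RNA was absent. Of 11 genes for Vcam1-binding integrins and other adhesion molecules 9 were tested, and Itga4 and Itgb1, the subunits that bind Vcam1, had means of 3781 and 3641. In WT, 8 of these 9 had higher values in SP than in BM, with a median of 0.54, where Vcam1 was lower. WT SP replicate 1 was the highest library for 5 of the 11, with a sum of 26934 normalized counts. WT SP replicates 2 and 3 had 18746 and 11723. The sums ranged from 14103 to 17975 in Δβ SP, from 11394 to 13227 in WT BM and from 11819 to 16166 in Δβ BM.

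Of the 32 macrophage markers 19 were tested. For Δβ against WT in SP, 18 of the 19 had lower values, with a median log2 fold change of -0.75, against -0.014 over all tested genes. The shift was not limited to this list: 11 of 11 tested markers of mature neutrophils had lower values in the same comparison, with a median of -1.08, and 5 of 7 of dendritic cells, with a median of -0.87. In BM the macrophage median was -0.10, with 8 higher and 11 lower. Between organs, 18 of 19 had higher values in SP in WT (median 0.50) and 8 of 19 in Δβ (median -0.050). WT SP replicate 1 was the highest of the 12 libraries for 13 of the 19. Hmox1, the summed macrophage markers and the summed C1q reads were each highest in WT SP replicate 1, and the part of the markers in the Hmox1 result was not tested. Slc40a1 did not follow them, with its lowest WT SP value in replicate 1.

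By likeness, genes closest to the mean log2 level of the 3 C1q genes over the 12 libraries were Clcn3, Otub1, Pygm, Tmem134, Med7, Acp2, Zfp52, Polr3c and Slc25a38, with Pearson's r of 0.863 to 0.919. All of these were highest in WT SP replicate 1, and 1 library decides the likeness. Between C1qa and C1qb, r was 0.56 over 12 libraries and -0.30 over the other 11. For Hmox1 the closest were Rab31 (r = 0.988), Ptprj (0.975) and Spred1 (0.974), and for Slc40a1 Spin1 (0.933), Rnf14 (0.924) and 2610507I01Rik (0.919). For Axl they were Zfp935 (0.930), Bri3 (0.930) and Sulf2 (0.923), for Cd163 Usp12 (0.932), Mgat4a (0.902) and Atp2b4 (0.897), and for Vcam1 Ggnbp1 (0.824), BC030336 (0.817) and Ccdc127 (0.813). Hmox1, Axl and the 3 genes closest to each were highest in WT SP replicate 1, as were the 3 closest to Cd163. Their r was not computed without this library. Among the genes themselves, Axl had an r of 0.71 with Cd163 and 0.78 with Hmox1, and 0.68 and 0.64 without WT SP replicate 1. These values describe 12 libraries that share depth and normalization.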

How the data were processed

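RNA of Venus+ MLL-AF9 blasts was sequenced from poly-A libraries of WT and Δβ cells from SP and BM, 3 libraries per group. The authors deposited a signal per gene and library, for 24454 genes, in which the counts of each library had been divided by its size factor. Per the labels, FastQC, STAR, featureCounts and DESeq2 and the builds GRCm38 and mm10 were used, and their versions and the strand setting are not given in the sources used here. The header of the table lacks 1 tab, which fused 2 column names and shifted the rest against the values. Names were split there and realigned, which decides the library of every value. All values were whole multiples of 1 read (100% at a tolerance of 0.01), and reads were recovered from this step. Another 6 columns that no sample label describes were not used. Depth was 9001051 to 13859727 reads, and the floor of 3 reads covers counting error only.

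The 10 genes, the gene lists and the tests were chosen with earlier results of these data known. Differences were tested with limma 3.58.1 in R 4.3.3 (lmFit and eBayes with trend) on log2(normalized count + 1) over 11476 genes with a mean of at least 10, with 1 mean per group and Benjamini-Hochberg adjustment. Fold changes on this scale understate those of low genes. Named are the 10 genes, listed genes past the threshold, the most abundant markers, the 10 genes closest to C1q and the 3 closest to each other tested gene. A gene that these rules would name is not reported here. Further listed genes were named for their role or after their values were seen. As alternatives, the pseudocount was set to 0.25 or 4 and the minimum mean to 50 or left out. Fits were repeated with TMM, edgeR 4.0.16 and DESeq2 1.42.0 on recovered reads, and with the compared groups alone. Further fits used a replicate block over all groups, a block within genotype for the organ comparisons, and each library left out. The fits were tested on simulated data. Positions are from GENCODE M21 on GRCm38, and exon lengths are unions of its exons. Deviations from group means of same-numbered SP and BM libraries correlated across genes with r = 0.664, 0.608 and 0.634 in Δβ, over 0.1 in each pair. In WT the values were r = -0.0094, -0.039 and -0.24. The main fit paired no libraries, so its organ comparisons in Δβ leave this likeness out. With a block of replicate number within genotype, limma gave Slc40a1 between organs in Δβ an unadjusted p of 0.000645 (adjusted p = 0.9999).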

Additional observations from a re-analysis of the deposited data

How the results depend on the processing

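For Δβ against WT in SP, the 12 genes called became 1 with a pseudocount of 0.25, 5 without a filter, 2 at a minimum mean of 50, 3 with TMM, 4 with edgeR, 452 with DESeq2, 2 with only the groups compared and 2 with a replicate block. In BM the 8 genes became 37 with DESeq2, 3 with only the groups compared and 5 with the replicate block. In comparisons with 0 genes called, DESeq2 called 109 between organs in WT, 2 in Δβ, 36 over both genotypes and 5 for the difference of genotype effects, and leaving out the filter gave 1 over both genotypes. Of the 5 tested genes here, 0 called became 2 with DESeq2 for the genotype in SP, 1 between organs in WT and 2 over both genotypes. The causes were not tested. The replicate block changed no call of the 5 tested genes.

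With each library left out in turn, the genes called ranged from 1 to 1884 for the genotype in SP and from 1 to 13 in BM, and from 0 to 598 between organs in WT, 0 to 5 over both genotypes and 0 elsewhere. The upper ends in SP and between organs in WT came without WT SP replicate 3, where the lone pair of WT SP libraries set that group. Of the 5 tested genes, 0 to 1 and 0 to 2 were called in these 2 comparisons.

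Only small differences changed direction. With edgeR and DESeq2, the log2 fold change of Cd163 became -0.085 and -0.097 for the genotype in BM (0.28 with limma), and 0.36 and 0.35 for the difference of genotype effects (-0.16). Leaving out libraries moved Cd163 from -0.47 to 0.69 for the genotype in SP, -0.40 to 1.18 in BM, -0.21 to 1.37 between organs in WT, -0.29 to 0.88 in Δβ and -1.06 to 0.52 for the difference of effects. For Axl the ranges were -0.53 to 1.42 between organs in WT, -0.58 to 0.62 in Δβ, -0.25 to 0.72 over both genotypes and -1.39 to 0.55 for the difference of effects. Vcam1 ranged from -0.016 to 0.82 for the genotype in SP and -0.81 to 0.020 between organs in Δβ, where Hmox1 ranged from -0.40 to 0.29. Depth limits the C1q genes, Spic and Mertk, where 3 reads or fewer decide most values.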
